A study of Mus musculus with 2 samples.

Results

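The genes of MHC class I antigen presentation were followed through mouse bone marrow cultures that received heme or its albumin carrier. The set was given as a list of 9 genes, and all 9 were found among the 26124 genes of both count matrices. H2-K1 and H2-D1 encode the classical class I heavy chains of this strain, and B2m encodes the light chain. Tap1 and Tap2 encode the peptide transporter, Tapbp encodes tapasin, Nlrc5 encodes a class I transactivator, and Psmb8 and Psmb9 encode catalytic subunits of the immunoproteasome. Each gene was read by library and culture day, and in cells gated on raw UMIs (unique molecular identifiers, which count captured transcripts) of Ccr7, Marco and Camp.

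Lineage-depleted marrow progenitors of C57BL/6 mice aged 8 to 10 weeks had been cultured with 20 ng/ml GM-CSF, a growth factor that yields dendritic cells, macrophages and granulocytes. On day 3 the medium received either heme-albumin at 300 µM (heme) or albumin alone (control). Each condition was 1 droplet library of transcript 3′ ends, made from a pool of 5 cultures that carried hashtag antibodies named for days 0, 3, 4, 5 and 7. Hence 2 libraries gave 10 cultures, no condition had a replicate, and the number of animals and of wells behind a culture was not given. The labels place harvests on days 4, 5 and 7, the design text names other hours of exposure, and the study's own outline has cultures begun on different days and collected together on day 7. Culture days are therefore used as the hashtags name them. Read that way, the cultures of days 0 and 3 precede the exposure, and every statement below on values before heme rests on that reading.

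After filtering, 9262 control and 9699 heme cells remained, with 365 to 2568 cells and 2436992 to 32885616 UMIs per culture. Day 0 of the control library was the smallest culture, because the limit on ribosomal protein UMIs removed 74.5% of its cells, against 24.0% of the day 0 cells in the heme library. Between 1.92% and 8.34% of the cells of a control culture, and between 16.4% and 33.9% of those of a heme culture, were dropped for more than 5000 genes. The libraries shared 112 barcodes, of which 29 were kept in both. Levels are given in CPM, the UMIs of a gene scaled to a fixed total of gene UMIs in the summed cells. Ranges in parentheses are exact 95% intervals that cover counting error only, and a call means a difference of 2-fold or more without a test.

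MHC class I molecules display peptides from inside the cell to CD8+ T cells. The proteasome cuts proteins into peptides, and its inducible catalytic subunits replace constitutive ones to form the immunoproteasome. Peptides enter the endoplasmic reticulum through the TAP transporter, where tapasin holds empty class I molecules close to it until they bind a peptide. Interferon gamma raises most of these genes, and dendritic cells also use the pathway to cross-present material they have taken up.

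Of the 9 genes, 7 lie on chromosome 17 by the GENCODE M21 annotation of GRCm38. Psmb9 (chr17:34181987-34187764, minus strand), Tap1 (chr17:34187553-34197225, plus strand), Psmb8 (chr17:34197721-34201454, plus strand) and Tap2 (chr17:34203527-34216321, plus strand) form a block of 34334 bases. Tapbp (chr17:33915899-33929292, plus strand) and H2-K1 (chr17:33996017-34000347, minus strand) lie on one side of it and H2-D1 (chr17:35262730-35267499, plus strand) on the other. B2m lies at chr2:122147686-122153083 and Nlrc5 at chr8:94434356-94527272, both on the plus strand. The annotated ends of Psmb9 and Tap1 overlap by 211 bases, head to head. Of all stretches of 91 bases, the length of the sequenced read, within the last 500 bases of their coding transcripts, 1 of 1323 of H2-K1 also occurs in other genes (H2-D1, H2-Q1, H2-Q6 and H2-Q7) and none of those of the other 8 genes does. Reads of H2-K1 and H2-D1 could therefore be told apart in nearly all positions near the 3′ end.

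Promoter windows of 300 bases (250 before and 50 after a RefSeq start, GRCm38.p6) were matched for 7 of the 9 genes, all but Tap2 and Nlrc5. The windows of Tap1 and Psmb9 share 275 bases, 91.7% of each, read on opposite strands, so the single window below stands in front of both genes. It is shown because these neighbours are compared throughout. The 2 heavy chain windows are shown over their best local alignment, in which 206 of 228 columns (90.4%) are the same base. Capitals mark letter matches on either strand to an interferon regulatory factor core (AANNGAAA), a kappaB site (GGGNNTTCC) or a CCAAT box (CCAAT), and none of these overlap here. A gamma-activated site (TTCNNNGAA) was searched too and is not in the 3 stretches.
Tap1, with Psmb9 on the opposite strand (chr17:34187306-34187605, plus strand): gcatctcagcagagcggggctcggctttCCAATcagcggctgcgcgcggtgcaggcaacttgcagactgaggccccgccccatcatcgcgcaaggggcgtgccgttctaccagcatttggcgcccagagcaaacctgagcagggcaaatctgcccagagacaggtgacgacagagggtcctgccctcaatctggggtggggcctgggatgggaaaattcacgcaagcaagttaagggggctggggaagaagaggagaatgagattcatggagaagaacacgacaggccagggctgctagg
H2-K1 (minus strand, within chr17:34000298-34000597): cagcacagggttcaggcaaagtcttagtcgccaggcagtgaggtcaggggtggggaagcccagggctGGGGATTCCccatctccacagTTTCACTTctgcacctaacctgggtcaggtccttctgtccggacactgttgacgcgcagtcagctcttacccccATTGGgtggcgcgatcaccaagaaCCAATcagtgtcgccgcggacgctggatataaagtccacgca
H2-D1 (plus strand, within chr17:35262844-35263143): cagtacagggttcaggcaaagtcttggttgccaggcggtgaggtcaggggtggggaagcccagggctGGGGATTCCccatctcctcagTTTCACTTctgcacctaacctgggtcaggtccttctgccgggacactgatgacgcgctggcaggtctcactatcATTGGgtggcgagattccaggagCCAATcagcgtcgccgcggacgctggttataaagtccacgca

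The heavy chain windows held the kappaB and interferon regulatory factor letters in the same order, followed by 2 CCAAT boxes. B2m held 1 interferon regulatory factor match and 1 CCAAT box, Tapbp held 2 CCAAT boxes, and Psmb8 held 1 match to the gamma-activated site. The Tap1 and Psmb9 window held 1 CCAAT box and none of the other letters. Among 32544 promoter windows of the same length, 23.9% held the interferon regulatory factor core, 5.85% the kappaB site, 37.4% the CCAAT box and 8.33% the gamma-activated site. A match describes letters and not a bound site, and a missing match speaks only for these letters in this window.

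On day 7 the immunoproteasome subunits Psmb8 and Psmb9 and the transporter subunit Tap1 were 2-fold or more lower in the heme culture than in the control culture. Their ratios of heme to control were 0.248 (0.239 to 0.258), 0.259 (0.243 to 0.276) and 0.397 (0.363 to 0.434). The classical chains, B2m and Tap2 were lower by less than 2-fold, with ratios from 0.662 to 0.725, and Tapbp and Nlrc5 had ratios of 0.959 and 0.913. These 3 calls of 9 compare with 7.26% of 12839 genes that were 2-fold lower on that day. The median log2 ratio of the 9 genes was -0.52, against 0.27 over all genes counted, and all 9 lay below 0, as did 35.0% of all genes. In summed cells, fewer cells of a type and less RNA per cell cannot be told apart.

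The same comparison gave no call on days 0 and 3, before heme was present, when 2.21% and 0.523% of all genes were 2-fold lower. It gave 1 call on day 4 (Psmb8, background 2.92%), which was lost with all Singlet barcodes and without the upper limit on genes, and 2 on day 5 (Psmb8 and Psmb9, background 3.75%). The libraries nevertheless differed before exposure. On day 3 the ratio of Psmb8 was already 0.538 and those of Psmb9 and H2-D1 were 0.765 and 0.767, whereas Nlrc5 (1.79) and Tapbp (a log2 ratio of 0.58) were higher in the heme library. Divided by the gene's own day 3 ratio, the day 7 ratio was 0.316 for Tap1, 0.339 for Psmb9 and 0.462 for Psmb8. The same quotient for day 5 came to 0.527 for Psmb9 and 0.756 for Psmb8, short of 2-fold, and that of Nlrc5 to 0.495. For day 4 it was 0.816 for Psmb8, which ends that call. With 1 library per condition, a difference between libraries and an effect of heme cannot be told apart.

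**Figure D1:**
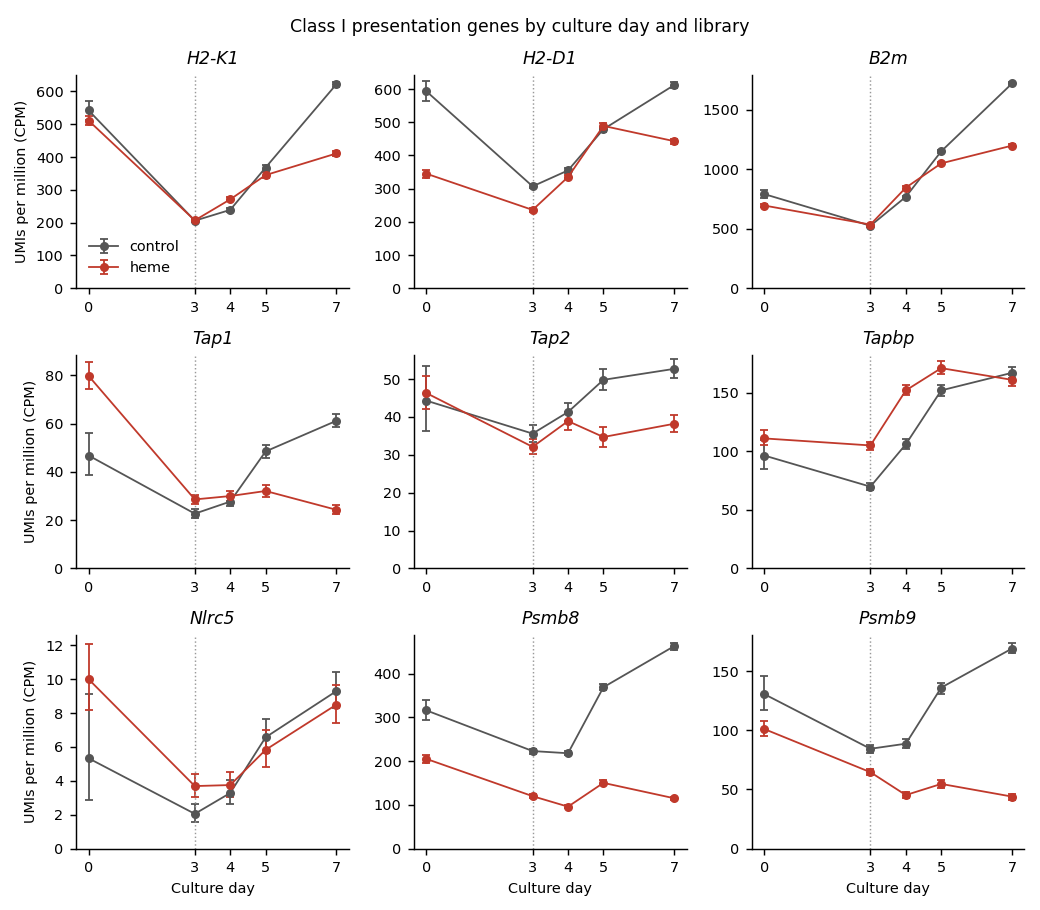
Level of each gene in CPM (y axis, from 0) by culture day (x axis) in the control library (grey) and the heme library (red). Each point is 1 summed culture, bars are 95% counting intervals and the dotted line marks heme addition. Psmb8, Psmb9 and Tap1 reached 463, 169 and 61.2 CPM in the control culture of day 7 and 115, 43.9 and 24.3 CPM in the heme culture.

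Psmb8 encodes the inducible subunit LMP7. Its level in the control library was 316, 223, 218, 369 and 463 CPM on days 0, 3, 4, 5 and 7. In the heme library it was 205, 119.8, 95.8, 150.2 and 115 CPM on these days. The heme culture was below the control culture on each of the 5 days, and no heme culture reached the lowest control culture. Heme over control came to 0.647 (0.595 to 0.703) for day 0, 0.439 (0.419 to 0.460) for day 4 and 0.407 (0.390 to 0.424) for day 5. Across single control cells of day 7 the median was 381 CPM (10th to 90th percentile 0 to 869), and across heme cells it was 77.8 CPM (0 to 248).

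Psmb9 encodes the inducible subunit LMP2. The control cultures held 130.5, 84.3, 88.6, 136 and 169 CPM from day 0 to day 7. The heme cultures held 101, 64.5, 45.2, 54.6 and 43.9 CPM. The heme culture was again lower on every day, and the heme cultures of days 3, 4, 5 and 7 lay below all control cultures. The ratio reached 0.511 (0.476 to 0.548) by day 4 and 0.403 (0.376 to 0.432) by day 5.

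The inducible subunits replace Psmb5 (by Psmb8), Psmb6 (by Psmb9) and Psmb7 (by Psmb10), and the UMI ratio within such a pair does not depend on how libraries are scaled. It is no ratio of molecules, since capture differs between genes. For Psmb8 to Psmb5 the ratio was 0.645 (0.625 to 0.665) in the control and 0.509 (0.489 to 0.528) in the heme culture of day 3. On day 7 it was 1.93 (1.88 to 1.98) and 0.413 (0.396 to 0.431). The control ratio had grown and the heme ratio had not. For Psmb9 to Psmb6 the day 3 values of 0.391 (0.373 to 0.410) and 0.404 (0.384 to 0.425) overlapped, and those of day 7 were 0.722 (0.697 to 0.747) and 0.181 (0.170 to 0.193). For Psmb10 to Psmb7, day 3 gave 0.677 and 0.514, and day 7 gave 1.15 and 0.521, in the same order of libraries. The constitutive genes Psmb5, Psmb6 and Psmb7 themselves had CPM ratios of heme to control of 0.682, 0.740 and 0.894 on day 3 and of 1.16, 1.03 and 1.07 on day 7, so their own differences enter these quotients.

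**Figure D2:**
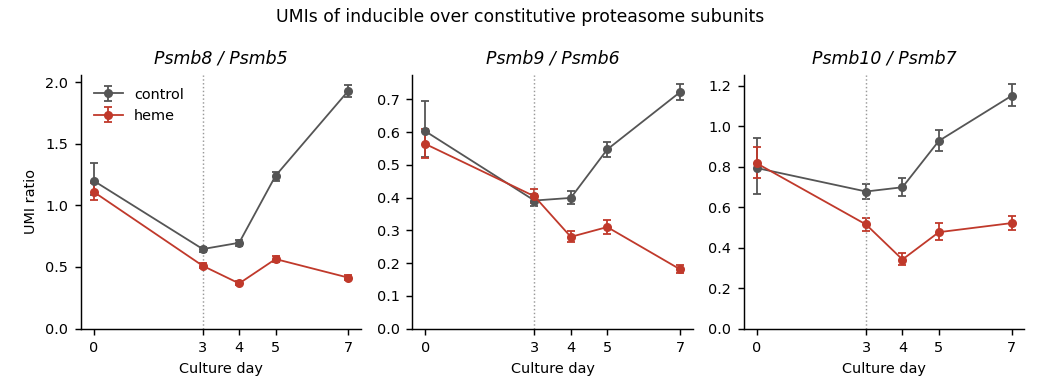
UMIs of each inducible proteasome subunit divided by those of the constitutive subunit it replaces (y axis, from 0) by culture day (x axis), with control in grey and heme in red. Bars are 95% counting intervals and the dotted line marks heme addition. By day 7 the control ratios stood at 1.93, 0.722 and 1.15 and the heme ratios at 0.413, 0.181 and 0.521.

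Tap1 and Tap2 form the peptide transporter as a pair, yet their counts differed in pattern. Tap1 stood at 46.8, 22.7, 27.7, 48.5 and 61.2 CPM in the control cultures from day 0 to day 7. In the heme cultures of days 0, 3, 5 and 7 it stood at 79.8, 28.6, 32.1 and 24.3 CPM, and that of day 4 (823 UMIs) was within counting error of the control (1.08, 0.978 to 1.20). The heme library was the higher one before exposure, with a ratio of 1.71 (1.40 to 2.09) for day 0, and the lower one from day 5 (0.661, 0.599 to 0.728). Tap2 ranged from 32.1 to 52.7 CPM over all 10 cultures, the narrowest relative range of the set at 1.64-fold. Its ratio came to 1.04 for day 0, 0.696 (0.633 to 0.765) for day 5 and 0.725 for day 7. No 2 cultures adjacent in the order of Tap2 levels differed beyond counting error.

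H2-K1 encodes the K heavy chain. Its control cultures held 542, 206, 239, 368 and 622 CPM from day 0 to day 7, and its heme cultures 511, 207, 271, 345 and 411 CPM. Both libraries were within counting error on day 3 (1.01, 0.971 to 1.04), and the ratio was 0.662 on day 7. H2-D1 encodes the D heavy chain and held 593, 307, 355, 479 and 612 CPM in the control against 345, 236, 335, 489 and 443 CPM in the heme library. Its day 7 ratio of 0.724 lay close to that of day 3 (0.767), and net of day 3 it was 0.944, against 0.658 for H2-K1. B2m, whose product all class I molecules need, held 791, 525, 768, 1150.1 and 1719.6 CPM in the control and 695, 535, 845, 1049 and 1198 CPM in the heme library. Its ratio came to 1.10 (1.08 to 1.12) for day 4, 0.912 (0.896 to 0.929) for day 5 and 0.697 for day 7.

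Tapbp and Nlrc5 showed the smallest differences between the day 7 cultures. Tapbp held 96.4, 69.8, 106, 152 and 167 CPM in the control and 111, 105, 152, 171 and 161 CPM in the heme library. Alone in the set, it was above control in the heme library on each of days 0, 3, 4 and 5, although other scalings or the day 3 quotient turned the sign on days 0, 4 and 5. Nlrc5, which switches on class I genes, was sparse, with 2.05 to 10.00 CPM and as few as 13 UMIs in a culture. Its day 7 levels of 9.30 (8.29 to 10.4) CPM in the control and 8.50 (7.43 to 9.67) CPM in the heme culture could not be separated at this depth.

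**Figure D3:**
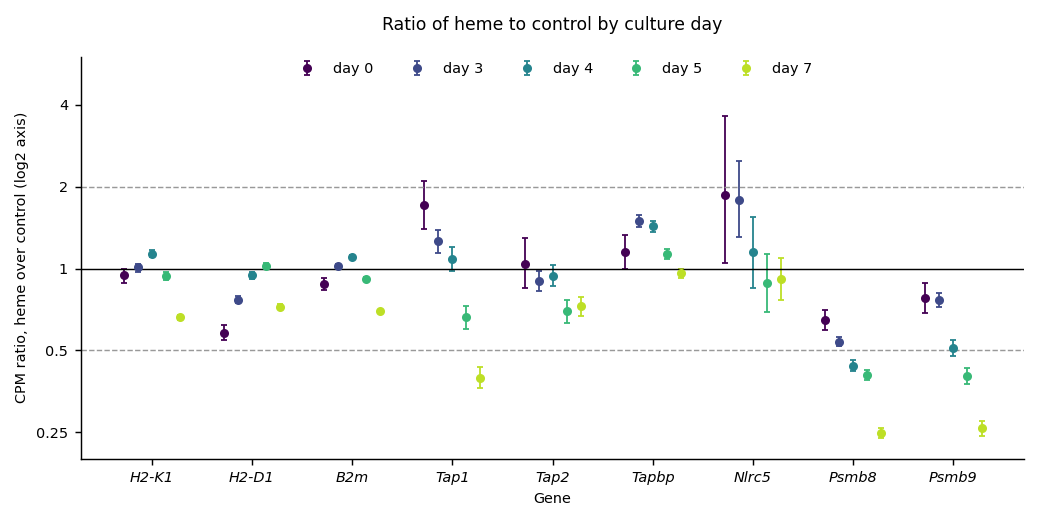
Ratio of heme to control CPM for each gene (x axis) on each culture day (colours), on a log2 y axis with 95% counting intervals. The solid line marks equality and dashed lines mark 2-fold. Psmb8, Psmb9 and Tap1 are past the lower dashed line on day 7, and Psmb8 was at 0.538 on day 3 already.

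Within the control library, 7 of the 9 genes were 2-fold or more higher on day 7 than on day 3 (H2-K1, B2m, Tap1, Tapbp, Nlrc5, Psmb8 and Psmb9), against 15.7% of all genes. H2-D1 missed the threshold at 1.99 and Tap2 stood at 1.48. Psmb8 and Psmb9 passed it narrowly at 2.08 (2.02 to 2.14) and 2.01 (1.91 to 2.11). Within the heme library, 2 of the 9 were 2-fold higher (B2m at 2.24 and Nlrc5 at 2.31), against 12.5% of all genes. H2-K1 (1.98) and H2-D1 (1.88) were just short of it. Psmb8 stood at 0.959 (0.915 to 1.01), Tap1 at 0.852 (0.770 to 0.942) and Psmb9 at 0.681 (0.633 to 0.731) of their day 3 levels. Over the 9 genes, the median log2 ratio of day 7 to day 3 came to 1.26 without and 0.62 with heme, beside 0.05 and 0.02 over all genes. The lowest level of H2-K1, B2m, Tap1, Tapbp and Nlrc5 among the 10 cultures was that of control day 3, and the highest of H2-K1, H2-D1, B2m, Tap2, Psmb8 and Psmb9 was that of control day 7. The lowest of H2-K1, B2m and Tap1 and the highest of H2-D1 and Tap2 were within counting error of the next culture.

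Part of each ratio moved with scaling. On totals of gene UMIs, the median log2 ratio of genes above 10 CPM was 0.21 to 0.29 on the 5 days. With TMM or DESeq2 factors it was -0.08 to 0.05, so ratios on those scales are lower than those on totals. Ribosomal protein genes held 21.1% of the UMIs of the control culture of day 7 and 15.6% of those of the heme culture, and 20.2% and 16.1% on day 3. On totals without ribosomal and mitochondrial genes the shift was 0.17 in place of 0.26 on day 7 and 0.19 in place of 0.25 on day 3, but 0.34 in place of 0.29 on day 0. The day 4 log2 ratio of B2m changed sign with scaling, from 0.14 on totals to -0.14 with TMM factors. That of day 7 stayed below 0 under all alternatives for Tapbp (-0.64 to -0.02) and Nlrc5 (-0.97 to -0.06), with the quotient by day 3 at the low end of both. For Psmb8, Psmb9 and Tap1 the day 7 log2 ratio ranged from -2.26 to -1.12, from -2.20 to -1.56 and from -1.66 to -1.24.

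Cells were then gated on raw UMIs, with at least 3 for Ccr7 (a migration receptor of mature dendritic cells), at least 3 for Marco (a scavenger receptor of macrophages) and at least 30 for Camp (a granule protein of neutrophil precursors). Cells past several gates were left out. On day 7 the Ccr7 gate held 395 of 2568 control cells (15.4%, 14.0 to 16.8) and 37 of 2012 heme cells (1.84%, 1.30 to 2.53). The Marco gate held 12 control cells, too few to be used, and 720 heme cells (35.8%, 33.7 to 37.9). The Camp gate was largest on day 4, with 968 control and 1329 heme cells, and held 7 and 124 on day 7. A gate on counts misses shallow cells, and the day 7 Marco cells had a median of 17114 UMIs against 10585 in the ungated heme cells.

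Markers of each cell type were read in the gates of day 7. The 5 dendritic markers (Fscn1, Ccl22, Cd83, Il4i1 and Ccl5) summed to 7852 CPM in the control and 11342 CPM in the heme Ccr7 gate, against 277 and 31.3 CPM in ungated cells. Ccl5 made up most of the excess of the heme gate (7054 against 3314 CPM), while Il4i1 (344 against 1023 CPM) and Fscn1 (276 against 452 CPM) were lower there. The 5 macrophage markers (Mrc1, Spic, Hmox1, Adgre1 and Csf1r) summed to 8042 CPM in the heme Marco gate. They also summed to 4944 CPM in ungated heme cells and 451 CPM in ungated control cells, but Hmox1, the heme oxygenase gene that heme itself induces, held 4316 and 104 CPM of these sums. Csf1r was near equal in these cells (197 and 195 CPM), and Mrc1 stood at 179.9 and 73.3 CPM. Adgre1 (183 and 78.4 CPM) and Spic (68.1 and 0.0732 CPM, the latter from 2 UMIs) were higher in the heme cells too. The 5 neutrophil markers (Ltf, Ngp, Lcn2, S100a8 and Elane) summed to 161114 CPM in the heme Camp gate, 19220.4 CPM in ungated heme cells and 2257 CPM in ungated control cells. Ungated cells of the libraries thus differed in dendritic, macrophage and neutrophil markers. The neutrophil markers reached 616 to 1625 CPM even in the Ccr7 and Marco gates, where their part in the results was not tested. Over whole cultures, the erythroid, basophil and mast cell lists were highest on day 0 (1984 and 8198 CPM in the control, 979 and 2556 CPM in the heme library) and at or below 84.2 and 34.8 CPM on day 7. The 4 markers listed as lymphoid (Cd3e, Cd79a, Nkg7 and Siglech) summed to 2.55 and 6.46 CPM on day 7, with Cd3e at 0 in every gate used that day. Siglech is read in the study as a gene of plasmacytoid dendritic cells. The sum of 32.2 CPM in the heme Camp gate came from Nkg7 alone (45 UMIs).

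On day 7, Ccr7 cells stood above ungated cells of the same library for H2-K1, H2-D1, B2m, Tap1, Psmb8 and Psmb9. In the control culture of day 7, H2-D1 stood at 1063 CPM in Ccr7 cells and 527 CPM in ungated cells, and Psmb9 at 306 and 144 CPM. These 2 genes were called, against 9.52% of all genes 2-fold higher in that gate. Psmb8 (774 against 406 CPM) and H2-K1 (1018 against 547 CPM) were 1.91- and 1.86-fold higher, just short of a call. Tapbp (0.848) and Tap2 (0.824) were lower. The count moved between 0 and 5 with the scaling, the cells kept, the gate and the threshold, since 4 of the genes lay near 2-fold.

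The ratio of Ccr7 to ungated cells on day 7 was next compared between the libraries. It was larger with heme, with intervals apart, for Psmb8, Psmb9, H2-K1, B2m and Tap2. Ccr7 cells of day 7 held 469.7 CPM of Psmb8 and ungated cells 116 CPM, a ratio of 4.03 (3.52 to 4.61), against 1.91 (1.84 to 1.98) in the control. For H2-K1 the ratios were 3.05 (2.80 to 3.33) and 1.86 (1.81 to 1.92), and for Tap2 2.74 (2.05 to 3.60) and 0.824 (0.715 to 0.946). B2m had 1.91 (1.80 to 2.03) and 1.41 (1.38 to 1.44), and Psmb9 2.95 (2.28 to 3.77) and 2.12 (2.00 to 2.24). Intervals of the libraries overlapped on day 7 for Tap1 (2.42 and 1.55), Tapbp (0.893 and 0.848) and Nlrc5 (1.37 and 1.15). On day 5 those of Tap1 were apart, at 4.07 (3.38 to 4.88) with heme and 2.57 (2.23 to 2.96) in the control. B2m overlapped on day 5, at 1.78 (1.71 to 1.85) and 1.72 (1.67 to 1.78), and stood at 2.17 in both libraries on day 4. On day 4 the Psmb8 ratio was 6.92 (6.24 to 7.66) in the heme and 3.29 (2.99 to 3.60) in the control library. H2-D1 overlapped on day 7, at 1.94 in the heme and 2.02 in the control library. It was smaller with heme on day 5, at 1.49 and 1.97, and on day 4, at 1.71 (1.56 to 1.87) and 2.44 (2.21 to 2.68). H2-K1 stood at 2.33 (2.13 to 2.55) with heme and 2.79 (2.52 to 3.09) in the control on day 4, with overlapping intervals. The marker levels of ungated cells given above differed between the libraries, and their part in these ratios was not tested.

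The libraries were next compared within Ccr7 cells. On day 7, 1 of the 9 genes (Psmb9) was 2-fold lower in the Ccr7 cells of the heme library, against 7.95% of all genes. Psmb9 stood at 306 CPM in the control and 134 CPM in the heme cells, a ratio of 0.440 (0.343 to 0.556), and Psmb8 at 774 and 469.7 CPM (0.606, 0.532 to 0.688). H2-D1 stood at 1063 and 832 CPM (0.783, 0.710 to 0.862). H2-K1 at 1018 and 1107 CPM (1.09, 0.997 to 1.18) and B2m at 2275 and 2144 CPM (0.942, 0.887 to 1.00) were within or at the edge of counting error of equality. Tap2 was higher in the heme cells, at 107 against 44.8 CPM (2.38, 1.76 to 3.19, from 58 UMIs in 37 cells). On day 5, none of the 9 was 2-fold lower in Ccr7 cells, against 2.86% of all genes. The lowest was Psmb9 at 0.578 (0.506 to 0.659), followed by Psmb8 at 0.735 (0.681 to 0.794), while H2-K1 stood at 0.989 (0.923 to 1.06). On day 4 the ratios of Psmb8 and Psmb9 in this gate were 0.735 and 0.688, from 37 control and 46 heme cells. Before exposure, on day 3, the gate held too few cells to be used (9 control and 10 heme). Whole cultures of that day had ratios of 0.538 for Psmb8, 0.765 for Psmb9 and 0.767 for H2-D1.

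**Figure D4:**
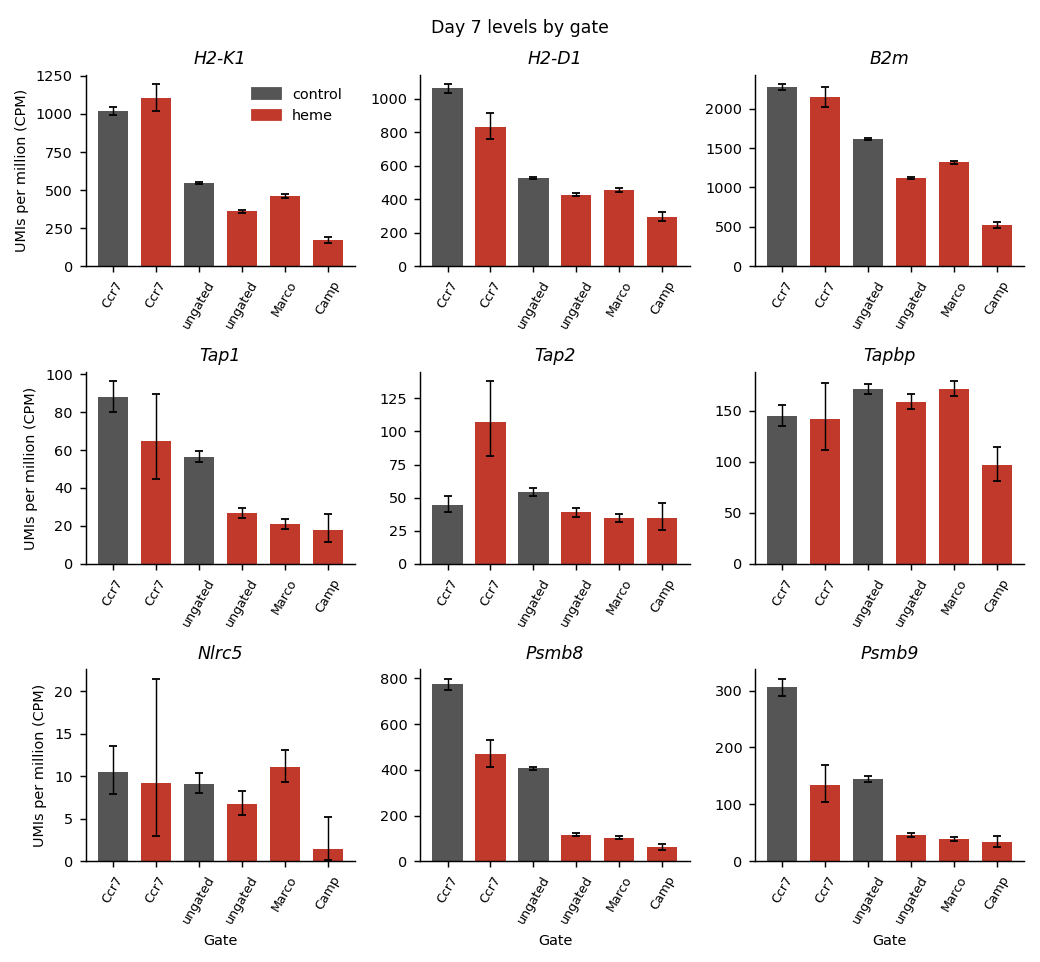
Day 7 level of each gene in CPM (y axis, from 0) in the cells of each gate (x axis), with control in grey, heme in red and 95% counting intervals. Bars are summed cells of 1 culture each, and gates with under 20 cells are left out. Ccr7 cells of either library stand above the other heme cells for H2-K1, H2-D1, B2m, Tap1, Psmb8 and Psmb9.

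On day 7 the dendritic markers of ungated cells summed to 277 CPM in the control and 31.3 CPM in the heme culture. Macrophage and neutrophil markers of these cells differed between the libraries too, and the part of these markers in the results was not tested. Ungated cells carried the day 7 difference as well. There, 3 of the 9 genes were 2-fold lower with heme, against 6.20% of all genes, with ratios of 0.287 (0.272 to 0.303) for Psmb8, 0.316 (0.289 to 0.344) for Psmb9 and 0.470 (0.417 to 0.529) for Tap1. In ungated cells of day 3 the Psmb8 ratio was 0.577 (0.551 to 0.603) and that of Psmb9 0.798 (0.744 to 0.857). Marco cells of the heme culture resembled its ungated cells in level, and none of the 9 genes was 2-fold lower in them, against 4.73% of all genes. Psmb8 stood at 103 and 116 CPM, Psmb9 at 39.2 and 45.6 CPM and Tap1 at 20.8 and 26.6 CPM in Marco and ungated cells. H2-K1 (461 and 362 CPM), B2m (1321 and 1119.7 CPM) and Nlrc5 (11.1 and 6.74 CPM) were higher in Marco cells.

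Of the day 7 heme gates, Camp cells held the lowest level of every gene except Tap2. The share of all genes that were lowest in that gate was not counted. Intervals of Camp and Marco cells overlapped for Tap1, at 17.9 (11.6 to 26.4) and 20.8 (18.3 to 23.6) CPM. They also overlapped for Psmb9, at 33.6 (24.7 to 44.7) and 39.2 (35.8 to 43.0) CPM, and Nlrc5 had 2 UMIs in these Camp cells. In the control culture of day 5, 4 of the 9 genes were 2-fold lower in Camp than in ungated cells (H2-K1, Tap1, Nlrc5 and Psmb8), against 34.0% of all genes, and the median log2 ratio was -0.93 against -0.60. All 9 lay below 0 there, as did 75.9% of all genes. Psmb8 stood at 80.4 and 363 CPM, a ratio of 0.221 (0.196 to 0.250). H2-K1 stood at 162 and 345 CPM and H2-D1 at 348 and 457 CPM. Nlrc5 had 5 UMIs in the Camp cells. Between the libraries, 1 of 8 genes counted in Camp cells of day 5 was 2-fold lower with heme (Psmb9 at 32.4 against 64.8 CPM, a ratio of 0.499, 0.364 to 0.674), against 1.43% of all genes. That call rests on a ratio at the threshold and on 54 UMIs. Psmb8 stood at 0.693 (0.542 to 0.880) and Tapbp at 1.49 (1.25 to 1.77) in these cells. Before exposure, on day 3, their ratios in Camp cells were 0.688 (0.624 to 0.758) and 1.81 (1.61 to 2.03).

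Other genes of the pathway were read from lists. Of 12 other class I and class I-like heavy chains, 9 were 2-fold lower in the heme culture of day 7 and 1 was higher, beside 7.26% and 14.4% of all genes, with a median log2 ratio of -1.37 against 0.27. On day 3 none of the 11 counted was lower and 2 were higher, beside 0.523% and 8.03% of all genes. H2-T23, which encodes Qa-1, stood at 123 CPM in the control and 29.1 CPM in the heme culture of day 7 (0.237, 0.219 to 0.255). H2-Q7 stood at 37.1 and 3.04 CPM (0.0821, 0.0648 to 0.103). In the control library H2-Q7 was at 2.53 CPM on day 3, so that its day 7 level was 14.6-fold higher, while the heme culture of day 3 held 1.83 CPM. H2-Q6 and H2-Q7 are close copies, so their shared reads are uncertain. Mr1, which presents vitamin B metabolites to MAIT cells, was higher with heme at 20.3 against 5.81 CPM (3.49, 2.95 to 4.14), after a day 3 ratio of 2.48 (1.45 to 4.44).

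All 3 further immunoproteasome and PA28 genes were 2-fold lower on day 7 (median log2 ratio -1.22), as were 7.26% of all genes. Psmb10 stood at 98.9 and 47.9 CPM (0.484), and the PA28 activator subunits Psme1 and Psme2 had ratios of 0.429 (0.413 to 0.445) and 0.367 (0.354 to 0.381). On day 3 their ratios were 0.679, 0.880 and 0.789. None of the 3 constitutive catalytic subunits (median 0.10) and none of 5 genes of peptide loading and trimming (median 0.24) differed 2-fold. Among the latter, calnexin (Canx) stood at 1.90 (1.85 to 1.96) and calreticulin (Calr) at 1.18. Of 10 regulators, 1 was 2-fold lower, the kinase gene Jak2 at 0.450 (0.428 to 0.474), whose day 3 ratio was 1.67 (1.57 to 1.77). Irf1, which encodes an interferon regulatory factor, stood at 13.2 and 13.4 CPM, within counting error.

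All 8 interferon response genes with enough UMIs, of 10 listed, were 2-fold lower with heme on day 7 (median log2 ratio -2.58) and on day 5 (-2.38), beside 7.26% and 3.75% of all genes. On day 4, 2 of the 9 counted were lower (Ifit3 and Usp18) and 1 was higher (Rsad2 at 3.37, 2.82 to 4.04), beside 2.92% and 9.65% of all genes, and the median was -0.21. On day 3 none of the 7 counted differed 2-fold, and the median was 0.38. Isg15 stood at 36.1 and 5.86 CPM on day 7 (0.162, 0.137 to 0.192), and Gbp2, a guanylate-binding protein, at 79.6 and 13.7 CPM (0.171, 0.153 to 0.191). The 3 class II genes were 2-fold lower too (median -2.17), with Cd74 at 9764 and 2167 CPM. Of 6 genes tied to cross-presentation, Batf3 (0.473, 0.443 to 0.504) and Xcr1 (0.359, 0.104 to 1.01) were 2-fold lower, the latter from 5 and 17 UMIs and lower on day 3 as well (0.297). Dendritic markers summed to 1484 CPM in the control and 257 CPM in the heme culture of day 7. They summed to 1021 and 814 CPM on day 5, and to 265 and 389 CPM on day 4, when the heme culture was higher. The part of these markers in the differences was not tested.

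**Figure D5:**
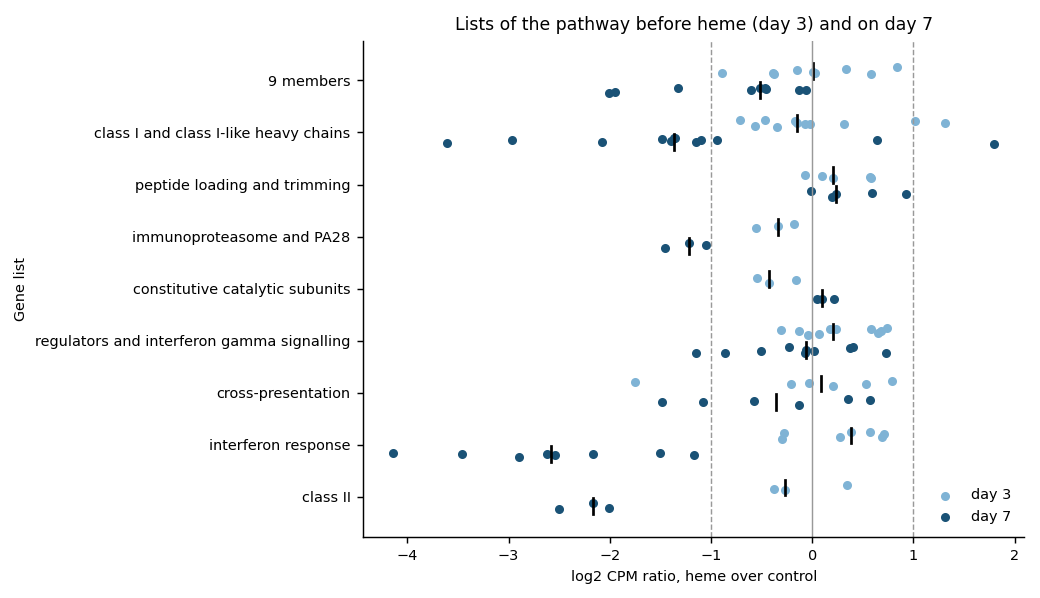
Log2 CPM ratio of heme to control (x axis) for the 9 genes and for each list of pathway genes (y axis), on day 3 (light) and day 7 (dark). Points are genes with 20 or more UMIs, bars are medians and dashed lines mark 2-fold. On day 7 the medians were -2.58 for the interferon response, -2.17 for class II, -1.37 for class I-like heavy chains and 0.10 for the constitutive subunits.

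Across the 10 cultures, which share 2 libraries, the pair of genes that varied most alike was Psmb8 and Psmb9 (Pearson r = 0.97 of log2 CPM). H2-K1 and Nlrc5 followed each other with r = 0.87, B2m and Tapbp with r = 0.84, and H2-K1 and H2-D1 with r = 0.81. The neighbours Tap1 and Psmb9 had r = 0.69. Tapbp had r of -0.08 with Psmb8 and -0.17 with Psmb9. Against the mean pattern of the 9 genes, r was 0.47 for Tapbp and 0.73 to 0.91 for the others. There were 8191 genes with 20 or more UMIs in every culture. With the 9 genes themselves left aside, those most like that mean were Ahcyl2 (0.97), Necap2 (0.96), Tmem203 (0.96), Arhgap6 (0.95) and Hyi (0.95). Ahcyl2, for instance, stood at 50.9 CPM in the control and 15.5 CPM in the heme culture of day 7. Such values describe 10 points with no replicate.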

How the data were processed

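The 2 libraries of single cells were each a pool of 5 hashtagged cultures. The deposited values are raw UMI counts by gene and barcode, which the authors made with Cell Ranger (version 4.0.0 per the submitters' processing notes, 5.0.0 in the matrix header, build GRCm38.p6). Hashtag calls are text from the authors' Seurat workflow, and Singlet barcodes were used, so doublets within a culture remain.

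Cells with 500 to 5000 genes, under 15% mitochondrial and under 30% ribosomal protein UMIs were kept. UMIs were summed per culture or gate (20 or more cells) and divided by all gene UMIs to give CPM. Intervals are exact Poisson intervals, exact intervals for the ratio of 2 Poisson counts, or Clopper-Pearson intervals for shares, at the 95% level. They cover counting error only. Genes with 20 or more UMIs in both groups together were counted, and a call was a 2-fold difference. With 1 library per condition no test was made. The calculation was tested on simulated counts. Similarity used Pearson r of log2(CPM + 1). Python 3.11.15, numpy 2.4.6, scipy 1.17.1, R 4.3.3, edgeR 4.0.16 and DESeq2 1.42.0 (the last 2 for scaling factors only) were used. The 9 genes, the lists and the gates were chosen with earlier results of these data known. All 9 genes were named, other genes came from the lists, and the 5 most similar genes by r were added. Gene positions were matched by identifier (26090 of 26124 found in GENCODE M21), promoters by symbol. Alternatives concerned scaling, cell filters, weighting of cells, gates, the day 3 ratio and the threshold.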

Additional observations from a re-analysis of the deposited data

Results flagged for a closer look

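Tap1 and Psmb9 went opposite ways in the libraries between day 3 and day 7. Tap1 had a log2 difference (day 7 minus day 3) of 1.43 without and -0.23 with heme, so that heme minus control came to -1.66. For Psmb9 the values were 1.01 and -0.56, so that heme minus control came to -1.56. Both stand out because the only culture of one library moved up and that of the other moved down. With 1 culture per day and library, the difference was not tested. Psmb8 (1.05 and -0.06) is not listed, because its heme value lies within counting error of 0.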

How the results depend on the processing

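The 3 genes lower with heme on day 7 in whole cultures and in ungated cells (Psmb8, Psmb9 and Tap1) were called under every alternative tried, with H2-K1 added at a threshold of 1.5-fold. In 86 of 129 recomputed counts the number stayed within 1.5 times. The others follow as counts of the 9 genes, 8 in Camp cells. With TMM factors, heme against control gave 1, 1 and 2 genes lower on days 0, 3 and 4, 2 and 1 in Ccr7 cells of days 7 and 5 and 2 in Camp cells of day 5. Against ungated cells, Ccr7 cells then gave 4 higher and Camp cells 2 lower. DESeq2 factors gave the same numbers (1, 1, 2, 2, 1, 4 and 2) save for Camp cells of day 5, which kept 1. The total without ribosomal and mitochondrial genes gave 2 on day 4, 0 in Camp cells of day 5 and 4 higher in Ccr7 cells. All Singlet barcodes gave 0 on day 4 and 0 higher in Ccr7 cells, and no upper limit on genes gave 1 on day 0, 0 on day 4 and 1 higher in Ccr7 cells. Means of per-cell CPM gave 0 between libraries in Camp cells of day 5 and 2 lower in Camp than in ungated cells. Divided by the day 3 ratio, day 4 gave 0 and day 5 gave 1 (Nlrc5). Gates at 1, 1 and 10 UMIs gave 2 in Ccr7 cells of day 7, 0 in Camp cells of day 5, 1 higher in Ccr7 and 2 lower in Camp than in ungated cells. Gates at 5, 5 and 100 UMIs gave 0 in Camp cells of day 5 and 1 higher in Ccr7 cells, and gates on cells thinned to 5000 UMIs gave 0 and 0. The threshold of 1.5-fold gave 2, 1 and 2 on days 0, 3 and 4, 2 and 1 in Ccr7 cells of days 7 and 5, 5 higher in Ccr7 and 7 lower in Camp than in ungated cells, and 5 higher on day 7 than on day 3 in the heme library. Beyond what each alternative itself changes, the cause was not tested. Of 297 recomputed log2 ratios of single genes, 165 left their counting interval and 39 changed sign, none of them a called one. No replicate could be left out, because each condition was 1 library. No paired analysis was possible because the labels give no replicate numbers. Depth limits Nlrc5 (13 to 306 UMIs per culture) and the 37 Ccr7 cells of the heme culture of day 7.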
